A study of Homo sapiens with 6 samples.

Results

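The genes HNRNPH1, HNRNPH3, HNRNPF, HNRNPL, HNRNPK, HNRNPM, HNRNPC, HNRNPR, HNRNPU and PCBP2 encode RNA-binding proteins of the heterogeneous nuclear ribonucleoprotein (hnRNP) family. Their introns and exons were taken from the deposited tables of retained introns and skipped exons by gene symbol, and an event was kept when its inclusion and skipping junction reads together averaged at least 20 per library. This gave 58 intron events of 21158 listed and 264 exon events of 153168 listed for the 10 genes. HNRNPF had exon events only. An event was tested when each form also had at least 5 reads over the 6 libraries, which left 37 intron events of 10155 and 158 exon events of 48100, on 129 exons. Polyadenylated RNA came from HEK293A-TOA cells, a single human embryonic kidney line, grown without any inhibitor. In the siNT group, 3 biological replicates were given a control siRNA with no target, and in the siSFSWAP group 3 were given 2 mixed siRNAs against SFSWAP, each at 40 nM for 5 days. SFSWAP, the splicing factor suppressor of white apricot homolog, is an SR-related protein, and the comparison asks how splicing differed once it was depleted. Libraries are named a, b and c in each group because the tables list them without replicate numbers.

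hnRNP proteins coat nascent transcripts and raise or lower the use of nearby splice sites. Each has a preferred sequence: hnRNP H and hnRNP F bind runs of G, hnRNP L binds CA repeats, hnRNP K and PCBP2 bind C-rich stretches, and hnRNP C binds runs of U. Many hnRNP genes are themselves alternatively spliced, often through poison exons or retained introns that set the amount of their own protein.

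Junction reads per library ranged from 19515010 to 55274283 in the exon table and from 2767079 to 7465949 in the intron table. RPM below stands for reads scaled to the library's spliced junction reads summed over genes, with 1 event per exon. The library siNT a was the deepest, with 1.73 to 2.83 times the exon-table reads of the others. It also stood apart in its gene sums, where the chi-square per degree of freedom was 39.5 and 41.8 against siNT b and siNT c and 4.96 between the last 2. Spliced junction reads of SFSWAP were 79.7, 86.5 and 80.2 RPM in siNT and 34.7, 34.6 and 21.3 RPM in siSFSWAP. Their mean in siSFSWAP was 36.8% of siNT, a log2 change of -1.48 ± 0.16 (SE, n = 3 per group, limma-trend, adjusted p = 0.000434). Of the epithelial markers, KRT8 and KRT18 had tested events, while EPCAM had 1 listed event, which was not tested. The blood cell markers PTPRC and CD3E had 0 listed events.

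Stretches from 3 called events and from the HNRNPM change are printed from the GRCh38 genome on the transcript strand. For HNRNPH1 the run covers intron 10 and exon 11, chr5:179616869-179617050 on the minus strand, and the capitals mark 30 bases added to exon 10 by a second donor site and the last 54 bases of exon 11. For the others the capitals mark short runs searched on this strand, which are GGGG for hnRNP H and F, ACACA for hnRNP L, CCCC for hnRNP K and PCBP2, and TTTTT for hnRNP C. HNRNPL intron 7 lies at chr19:38840377-38840487 on the minus strand, PCBP2 exon 12 at chr12:53467805-53467843 on the plus strand, and the HNRNPM stretch, which is part of exon 6, at chr19:8465363-8465479 on the plus strand.
HNRNPH1 intron 10 and exon 11: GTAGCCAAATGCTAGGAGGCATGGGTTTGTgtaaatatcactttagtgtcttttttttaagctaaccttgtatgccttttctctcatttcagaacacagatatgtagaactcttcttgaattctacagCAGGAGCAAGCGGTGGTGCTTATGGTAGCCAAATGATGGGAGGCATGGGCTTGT
HNRNPL intron 7: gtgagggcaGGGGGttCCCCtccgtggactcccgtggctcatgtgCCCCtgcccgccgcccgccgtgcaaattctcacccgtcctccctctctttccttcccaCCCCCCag
PCBP2 exon 12: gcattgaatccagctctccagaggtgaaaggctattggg
HNRNPM, inside exon 6: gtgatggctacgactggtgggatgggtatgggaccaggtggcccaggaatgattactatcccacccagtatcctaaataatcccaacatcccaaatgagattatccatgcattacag

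Of the 37 intron events, 2 were called, that is, they had an adjusted p of at most 0.05 in the quasi-binomial test and moved by at least 20 percentage points. HNRNPH1 gave the 1 called higher in siSFSWAP and HNRNPL the 1 called lower. Over all introns tested, 1.75% were called, 0.148% higher and 1.61% lower. By the adjusted p alone 5 of the 37 passed against 3.22% of all introns, and the groups did not overlap in 8 of the 37 against 21.3% of all introns. Of the 158 exon events, 5 were called, 2 higher in HNRNPH1 and 3 lower in PCBP2. Over all exon events 2.09% were called, 1.44% higher and 0.655% lower. By the adjusted p alone 21 of the 158 passed, on 17 exons of 6 genes, against 5.42% of all exon events, and the groups did not overlap in 51 of the 158 against 23.2% of all. The members were read more deeply than most events, with a median of 951 reads per library over their introns and 1017 over their exons, whereas the medians over all tested events ran from 69 to 180 and from 67 to 186 across the libraries. The median size of change was 0.58 points over the members' introns and 1.94 points over all introns, and 0.55 points over their exons and 1.97 points over all exons. The 7 called events rest on 4 skipping junctions, because events of overlapping exons share reads. None of the 7 had an adjusted p under 0.05 in an alternative test, limma on the log2 odds of the 2 forms, whose values for them ran from 0.0821 to 0.156.

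**Figure D1:**
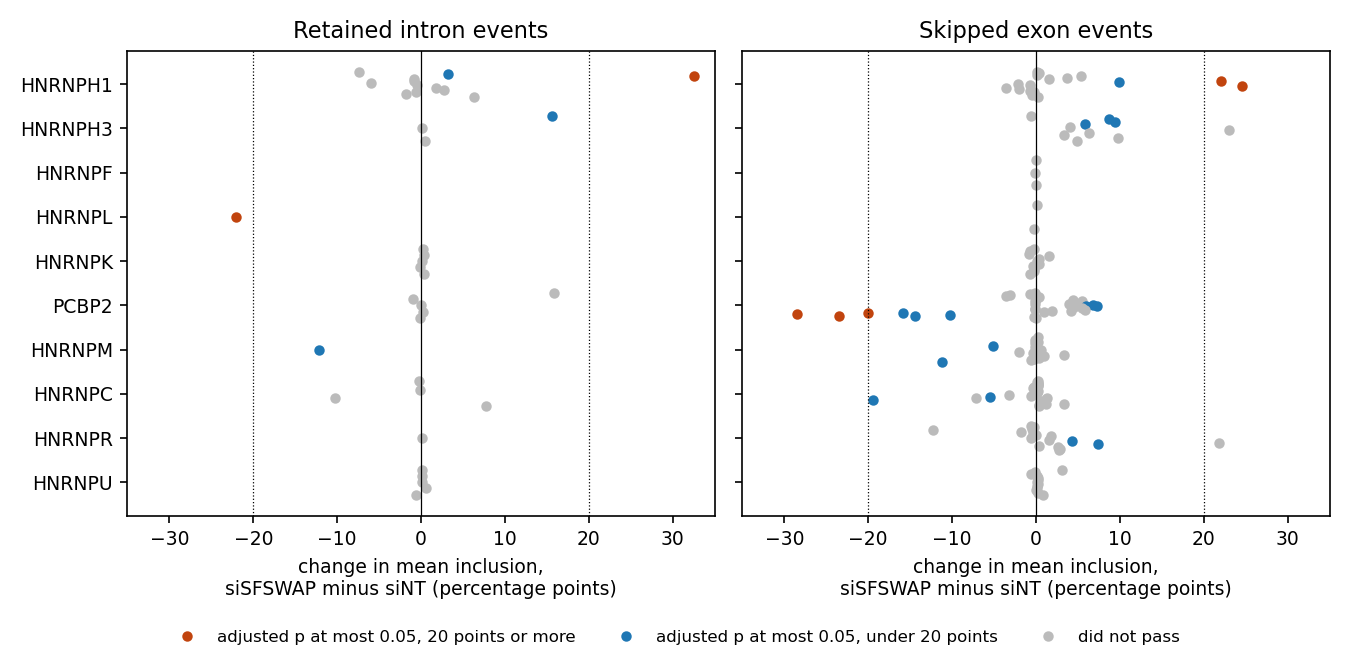
Change in mean inclusion (siSFSWAP minus siNT, percentage points) of each tested intron event (left) and exon event (right) of the 10 genes, 1 point per event, with dotted lines at 20 points either way. Most points lie near 0, and the called ones are in HNRNPH1, HNRNPL and PCBP2.

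HNRNPH1 (ENSG00000169045.17, chromosome 5, minus strand) encodes hnRNP H1, which binds G runs through its quasi-RRM domains. Its largest change was in the region between exon 10 and exon 12, where exon 11 can be skipped by a junction from the second donor, 30 bases beyond the usual end of exon 10, to exon 12. This junction had 379, 277 and 261 reads in siNT and 100, 67 and 53 reads in siSFSWAP. In RPM it had 7.81, 13.5 and 14.3 in siNT and 3.57, 3.92 and 2.72 in siSFSWAP, so that its mean was 28.7% of siNT and the groups did not overlap. The ordinary junctions beside it moved little: exon 10 to exon 11 had a mean of 40.7 ± 2.48 RPM in siNT and 38.5 ± 1.86 in siSFSWAP, and exon 11 to exon 12 had 37.8 ± 2.06 and 35.98 ± 1.81 (SD, n = 3). The skipping junction occurs in 3 GENCODE release 44 transcripts, 2 of them protein-coding, and the form with it would encode 429 amino acids, 20 fewer than the main transcript.

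**Figure D2:**
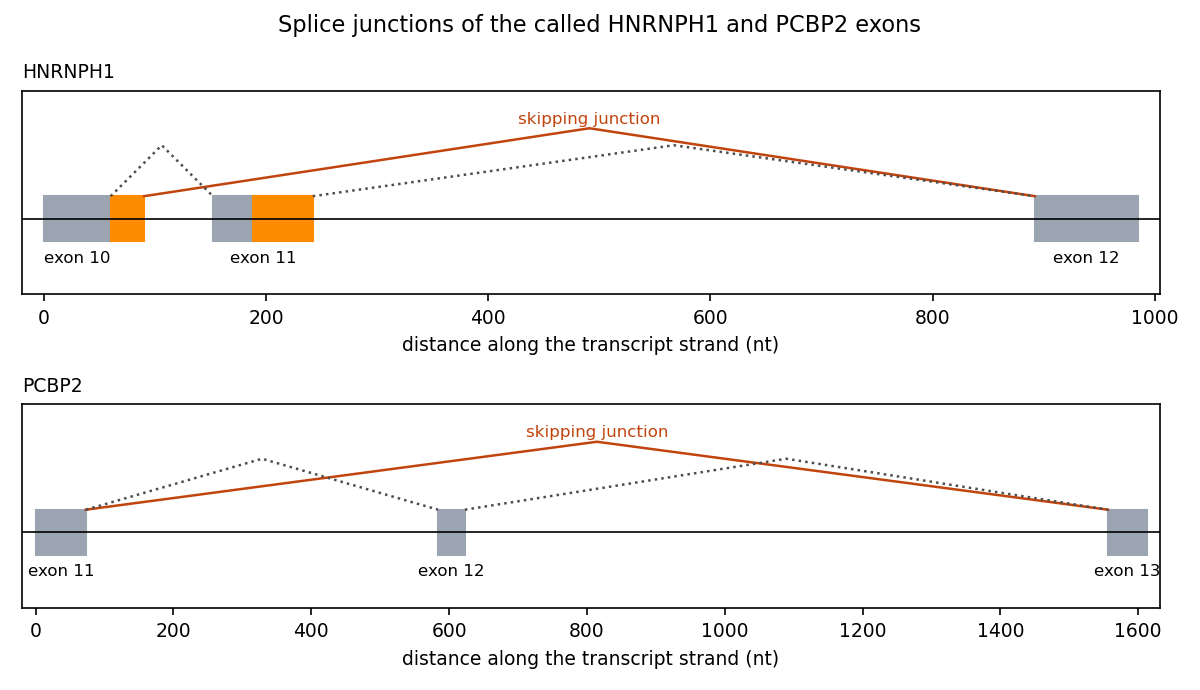
Exons (grey boxes) and splice junctions around the called exons of HNRNPH1 and PCBP2, drawn to scale as distance along the transcript strand in nucleotides, with the skipping junction as a solid line, the junctions of the main transcript as dotted lines, and the 30 added and 54 last bases of HNRNPH1 exons 10 and 11 in orange. In HNRNPH1 the skipping junction starts 30 nt beyond the end of exon 10, and in PCBP2 it joins exon 11 to exon 13.

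The retained intron table scores the same skipping junction as the spliced form of the stretch from the second donor to exon 12 (chr5:179616219-179617020). Retention there was 18.8%, 11.9% and 9.69% in siNT and 42.7%, 44.2% and 50.9% in siSFSWAP. The mean rose from 13.5% ± 4.72 to 45.9% ± 4.39 (SD, n = 3 per group), a gain of 32.5 points (limma-moderated quasi-binomial test, adjusted p = 0.000182). The boundary reads, which count as retention, went from 3.61, 3.65 and 3.07 RPM in siNT to 5.31, 6.20 and 5.65 in siSFSWAP, with no overlap between the groups. They are nearly the same reads as those of intron 11 (chr5:179616219-179616868), which is spliced from exon 11 to exon 12 and holds 5 GGGG and 3 TTTTT matches, found in 80.6% and 61.5% of the 247 tested introns of like length. Retention of intron 11 was 4.71%, 5.18% and 3.68% in siNT and 6.75%, 8.15% and 8.24% in siSFSWAP, and it rose by 3.19 points (adjusted p = 0.0216), which was lost without siNT b or any 1 of the siSFSWAP libraries (adjusted p of 0.0669 to 0.148). So the retention score of the longer stretch rose by 32.5 points while intron 11, on nearly the same boundary reads, rose by 3.19 points.

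In the exon table, the form of exon 11 that starts 36 bases inside the exon (54 nt) was included at 69.9%, 58.2% and 58.4% in siNT and at 83.5%, 82.6% and 86.6% in siSFSWAP. Inclusion rose by 22.1 points, from 62.2% ± 6.68 to 84.2% ± 2.12 (adjusted p = 1.33e-05), and no siSFSWAP library overlapped a siNT library. With counts not divided by length the change was 17.6 points, under the size needed for a call. A 24 nt form that starts at the same acceptor and ends at another donor had 2 to 19 inclusion reads per library and rose by 9.83 points (adjusted p = 0.00995) on the same skipping junction. That pass was lost without siNT b, siSFSWAP b or siSFSWAP c (adjusted p of up to 0.134). The junction from the second donor to the shortened exon 11 had only 3 reads over the 6 libraries, so the inclusion reads of the 54 nt form came almost all from the exon 11 to exon 12 side. The 54 nt and 24 nt forms are each in 0 annotated transcripts. In the printed run, the 30 added bases match the last 30 bases of exon 11 at 27 positions, including the 4 next to the junction.

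HNRNPH1 exon 6 was called as well, as an exon between exon 4 and an exon 8 that lacks its first 21 bases. Between these flanks its inclusion was 40.0%, 7.50% and 13.8% in siNT and 41.9%, 54.8% and 38.0% in siSFSWAP. The groups overlapped, with siNT a inside the siSFSWAP range. The mean change was 24.5 points (adjusted p = 0.0211, 87.2 reads per library). Its skipping junction from exon 4 to exon 8 was read 39, 111 and 106 times in siNT and 27, 14 and 22 times in siSFSWAP. Inclusion reads with these flanks were 18 to 52 per library. The ordinary junction from exon 6 to exon 7 had 1255, 687 and 653 reads in siNT and 790, 527 and 504 in siSFSWAP. So the percentages compare minor forms and are not the inclusion of exon 6 in the gene as a whole. The call was lost when any library except siNT a was left out, with an adjusted p of up to 0.169, and when no minimum was set for the rarer form (0.0586). The 10 intron and 15 exon events of HNRNPH1 that did not pass the adjusted p moved by -7.43 to 6.24 and by -3.58 to 5.32 points.

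HNRNPH3 encodes a smaller relative of hnRNP H1 that also binds G runs. Its exon 3 (chr10:68337858-68337996, plus strand, 139 nt) holds 3 GGGG runs and 1 ACACA, and GGGG is found in 32.6% and ACACA in 12.6% of the 5973 tested exons of like length (within 10%). Inclusion of exon 3 was 85.2%, 82.9% and 85.9% in siNT and 89.8%, 90.4% and 91.3% in siSFSWAP, and all siSFSWAP libraries were above all siNT libraries. It rose by 5.85 points, from 84.7% ± 1.58 to 90.5% ± 0.75 (adjusted p = 0.0131), under the 20 points needed for a call. A 156 nt and a 133 nt form each share an end with exon 3 and are in 0 annotated transcripts. In siNT a they had 1238 and 760 inclusion reads, where exon 3 had 1998, so they are not results separate from exon 3. They rose by 8.67 and 9.38 points (adjusted p = 0.0092 and 0.0287), on the same skipping junction from exon 2 to exon 4. That junction had 3.57, 4.14 and 3.62 RPM in siNT and 2.92, 2.81 and 2.36 in siSFSWAP. Skipping exon 3 would leave 71 amino acids before a stop more than 50 nt upstream of the last junction, against 346 amino acids in the main transcript.
HNRNPH3 exon 3: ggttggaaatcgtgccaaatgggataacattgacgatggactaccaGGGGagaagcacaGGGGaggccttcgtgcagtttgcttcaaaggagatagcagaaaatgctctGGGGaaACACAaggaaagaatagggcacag

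The stretch from exon 2 to exon 4 of HNRNPH3 was also scored as a retained intron, again with that skipping junction as its spliced form. Its retention was 31.8%, 30.9% and 33.7% in siNT and 43.1%, 52.5% and 47.7% in siSFSWAP. It rose by 15.6 points (adjusted p = 0.031) with no overlap, and was not called. The boundary reads went from 3.32, 3.70 and 3.67 RPM to 4.42, 6.20 and 4.32. The other 2 tested introns of the gene, introns 5 and 9, moved by 0.13 and 0.43 points. Each of the 4 HNRNPH3 changes lost its adjusted p of 0.05 when siNT b, siSFSWAP b or siSFSWAP c was left out, with values up to 0.177.

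HNRNPF encodes hnRNP F, a G-run-binding relative of hnRNP H1. It had 3 tested exon events, which moved by -0.1 to 0 points, and none passed the test at an unadjusted or adjusted p of 0.05. The one with the smallest p, a 140 nt exon (chr10:43391313-43391452), was included at 0.3%, 0.23% and 0.32% in siNT and at 0.11%, 0.19% and 0.25% in siSFSWAP, which overlap (adjusted p = 0.681).

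HNRNPL (ENSG00000104824.18) encodes hnRNP L, which binds CA repeats and regulates many alternative exons. Retention of its intron 7, printed above, was 25.0%, 34.4% and 37.7% in siNT and 11.3%, 11.3% and 8.4% in siSFSWAP, with no overlap. The mean fell from 32.3% ± 6.57 to 10.3% ± 1.67 (SD, n = 3 per group), by 22.0 points (adjusted p = 6.23e-05). The reads of the 2 forms moved in opposite directions. The intron boundaries had 22.4, 31.1 and 37.5 RPM in siNT and 11.02, 12.2 and 9.5 in siSFSWAP, a mean at 36% of siNT. The junction from exon 7 to exon 8 had 33.6, 29.65 and 31.0 RPM in siNT and 43.3, 48.1 and 51.8 in siSFSWAP, a mean at 152% of siNT.

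**Figure D3:**
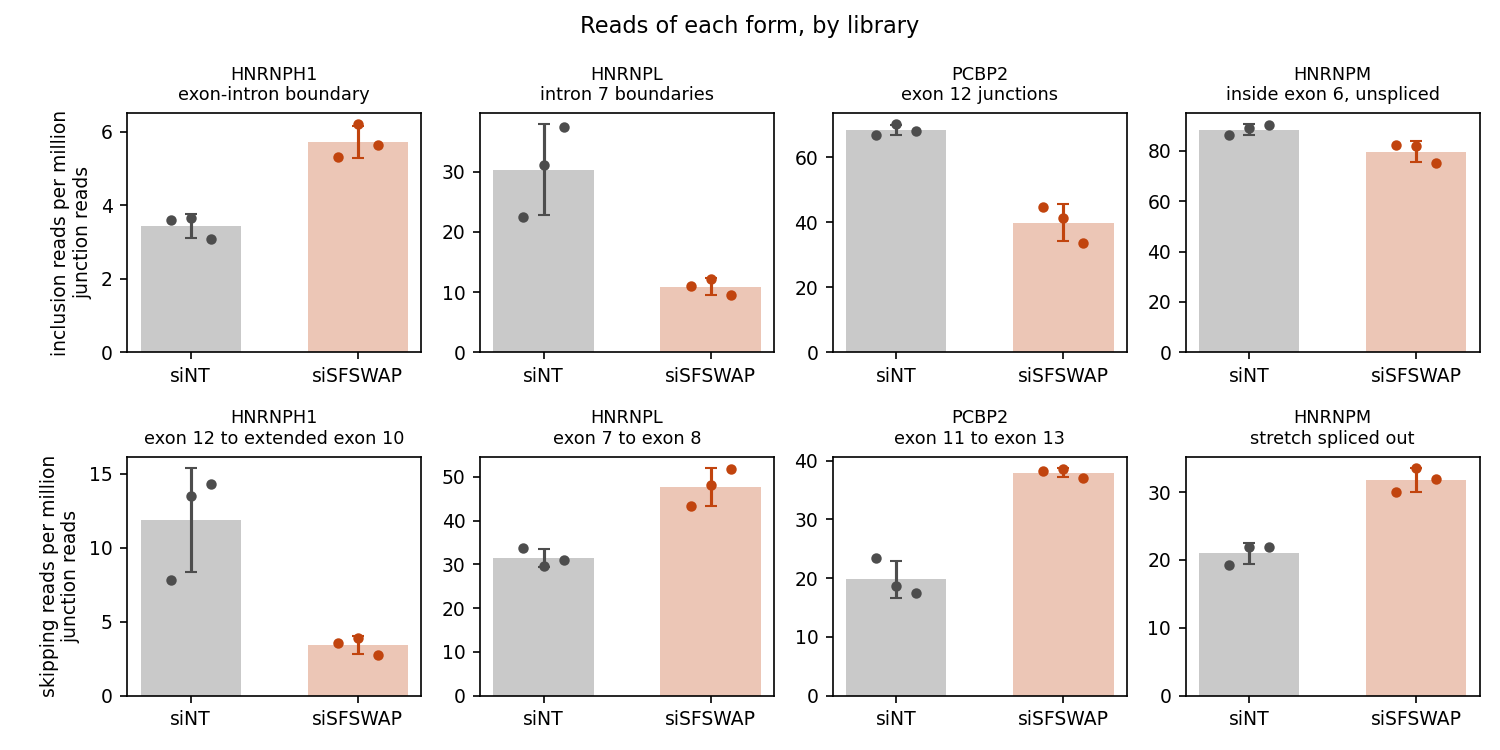
Scaled junction reads (RPM) of the inclusion form (top row) and of the skipping or spliced form (bottom row) in HNRNPH1, HNRNPL, PCBP2 and HNRNPM, with 1 point per library, bars at the group mean and error bars of 1 SD (n = 3). In HNRNPL the boundary reads stood at 36% of siNT and the spliced reads stood at 152%.

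Intron 7 of HNRNPL is 111 nt long, a multiple of 3, and its GC content of 69.4% compares with a median of 58.4% over the 1237 tested introns of like length. It holds 2 GGGG and 5 CCCC matches, overlaps counted, and no ACACA or TTTTT. GGGG is present in 56.7% and CCCC in 54.4% of those introns. Retention keeps the reading frame open and would give 626 amino acids in place of 589, and 3 annotated transcripts, 2 of them protein-coding, hold the intron inside an exon. The adjusted p stayed at or under 0.011 with any 1 library left out, but without siNT c the change was -19.4 points and fell short of a call. A 131 nt exon inside intron 6 (chr19:38841552-38841682), which would bring in an early stop, was included at 0.59%, 0.81% and 0.45% in siNT and 0.87%, 0.46% and 0.82% in siSFSWAP (adjusted p = 0.82).

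HNRNPK encodes hnRNP K, a KH-domain protein that binds C-rich RNA. Its 5 tested introns were retained at 0.39% to 3.45% on average in siNT and moved by -0.13 to 0.37 points, and its 11 tested exon events moved by -0.79 to 1.49 points. None of them passed the test, and 7 of the exon events and none of the introns had an unadjusted p under 0.05, against 19.8% of all exon events and 15.8% of all introns. The smallest p among its exons was at a 61 nt form of exon 3, which was included at 100% in each siNT library and at 99.8%, 99.8% and 99.3% in siSFSWAP (adjusted p = 0.113).

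PCBP2 (ENSG00000197111.16, chromosome 12), poly(rC)-binding protein 2, is the other KH-domain protein here, and it had the largest fall. Inclusion of its exon 12 (39 nt, printed above) was 67.2%, 72.9% and 73.7% in siNT and 45.6%, 43.5% and 39.4% in siSFSWAP, with no overlap. The mean fell from 71.3% ± 3.51 to 42.8% ± 3.16 (SD, n = 3 per group). It fell by 28.4 points (adjusted p = 5.85e-11). Inclusion reads were 67.0, 70.2 and 68.1 RPM in siNT and 44.7, 41.4 and 33.6 in siSFSWAP. Reads of the junction from exon 11 to exon 13 were 23.4, 18.7 and 17.4 RPM in siNT and 38.3, 38.6 and 37.1 in siSFSWAP, a mean at 191% of siNT. The inclusion form thus lost reads as the skipping form gained them, and the groups overlapped in neither.

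Exon 12 encodes 13 amino acids in frame, since skipping it gives 349 in place of 362, and the skipping junction is in 4 annotated protein-coding transcripts. The exon holds none of the searched runs, and CCCC is found in 7.77% and GGGG in 6.07% of the 708 tested exons of like length. A 23 nt and a 477 nt form that share its acceptor and the same skipping junction were called too, with changes of -20.01 and -23.5 points (adjusted p = 4.3e-08 and 2.79e-08). With another start of exon 13, which lies 3 nt further in, the 3 forms fell by 10.2 to 15.8 points (adjusted p = 0.000521 to 0.000602). The 23 nt form had nearly the same inclusion reads with either start, 582, 280 and 224 or 581, 281 and 223 in siNT. The same held for the 477 nt form, at 1151, 609 and 517 or 1152, 605 and 517. So few of their reads came from their own donors, and their calls are not separate from that of exon 12. The 23 nt and 477 nt forms are each in 0 annotated transcripts. Exon 12 was called with each library left out in turn, at changes of -30.5 to -26.7 points, whereas the 23 nt form reached 20 points in only 2 of these 6 fits.

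PCBP2 exon 9 (chr12:53464760-53464852, 93 nt, without which 317 amino acids would be encoded in place of 348 when exon 10 is also left out) moved the other way. Joined to exon 11, it was included at 84.1%, 79.9% and 77.8% in siNT and at 87.7%, 86.4% and 87.9% in siSFSWAP, and it rose by 6.74 points (adjusted p = 0.025) with no overlap. A 272 nt form of it, in 0 annotated transcripts, rose by 5.94 and 7.29 points with its 2 downstream partners (adjusted p = 0.0245 and 0.019). Its inclusion reads were nearly the same with either partner, at 2152, 1024 and 850 or 2150, 1021 and 845 in siNT. So few came from its own donor, and these rises are not separate from the reads of exon 9. The usual event, with exon 10 as its partner, moved by 3.88 points and did not pass (adjusted p = 0.06). None of the 3 rises kept an adjusted p of 0.05 with siNT c or any of the siSFSWAP libraries left out, at values up to 0.167. The 5 tested PCBP2 introns did not pass, and 4 of them moved by less than 2 points. The other, a 134 nt stretch inside intron 1, rose by 15.9 points on 23.7 reads per library, and its groups overlapped.

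**Figure D4:**
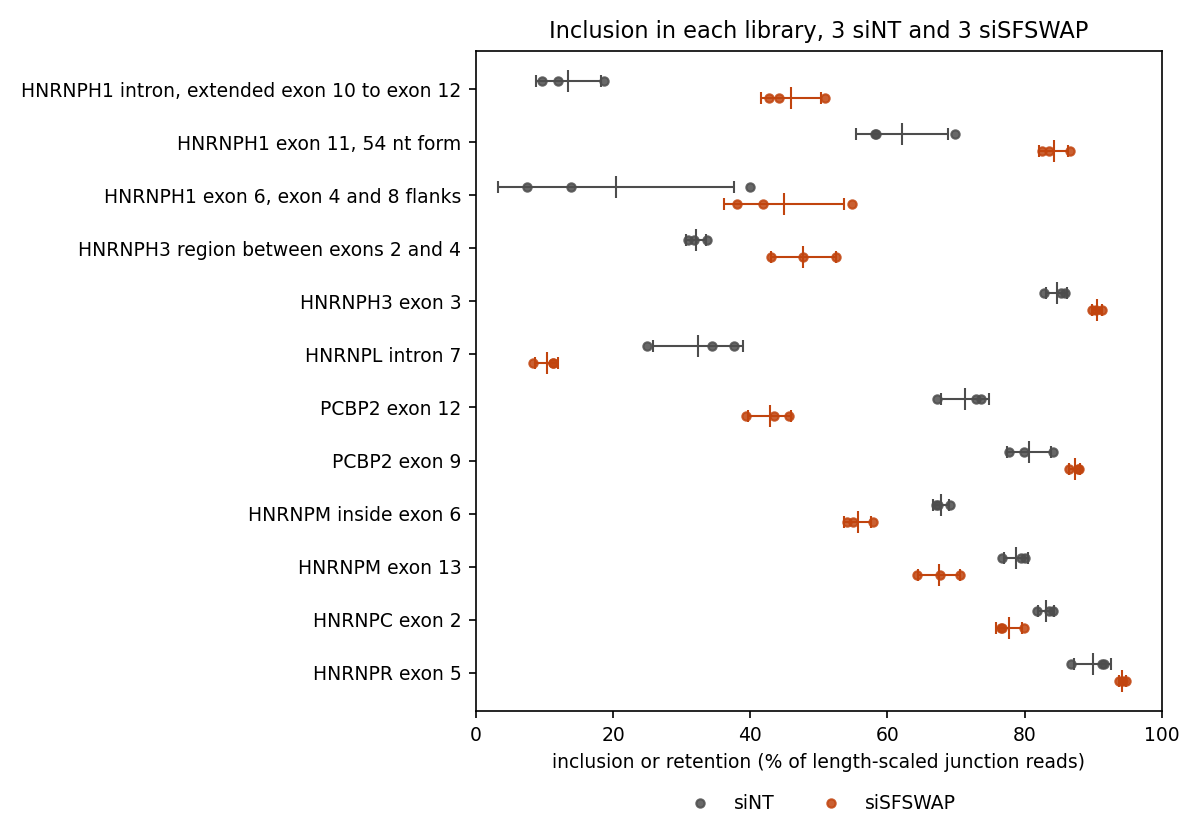
Inclusion of exons and retention of introns (percent of length-scaled junction reads) in each siNT and siSFSWAP library for 12 events of the members, with points for libraries, a tick at each mean and a bar of 1 SD (n = 3). The groups overlap for HNRNPH1 exon 6 and for none of the other 11.

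HNRNPM encodes hnRNP M, which binds GU-rich RNA. The 117 nt stretch printed above lies inside exon 6 of the main transcript, and the junction that splices it out is in 3 annotated protein-coding transcripts. It was kept at 69.2%, 67.1% and 67.3% in siNT and at 57.8%, 55.0% and 54.1% in siSFSWAP, and it fell by 12.2 points (adjusted p = 0.000182) with no overlap. Reads that splice it out went from 19.2, 21.9 and 21.9 RPM to 29.96, 33.5 and 31.9, a mean at 152% of siNT. The stretch starts with GT and ends with AG and holds none of the searched runs, of which GGGG is in 58.1% and CCCC in 54.4% of the 1072 tested introns of like length.

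HNRNPM exon 13 (chr19:8483158-8483211, plus strand, 54 nt) fell as well. It was included at 80.1%, 79.4% and 76.7% in siNT and at 70.5%, 67.6% and 64.4% in siSFSWAP, and fell by 11.2 points (adjusted p = 2.74e-05). Its skipping gives 712 amino acids in place of 730, and the skipping junction had 9.61, 9.84 and 9.86 RPM in siNT and 14.4, 15.6 and 16.1 in siSFSWAP. Both HNRNPM changes passed with each library left out, with largest adjusted p values of 0.0116 and 0.00237. The 8 nt exon 4 fell by 5.15 points (adjusted p = 0.0245) on a skipping junction with 0 reads in every siNT library and 4, 1 and 8 in siSFSWAP, and this did not hold when siNT b, siNT c, siSFSWAP a or siSFSWAP c was left out. The other 16 exon events of HNRNPM moved by -2.08 to 3.27 points.
HNRNPM exon 13: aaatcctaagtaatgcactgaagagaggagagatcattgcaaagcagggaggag

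HNRNPC encodes hnRNP C, which binds U runs and packages nascent RNA. Its exon 2 (chr14:21263311-21263336, 26 nt) lies in the 5′ UTR, so the protein of 293 amino acids is the same with or without it. Exon 2 was included at 83.6%, 81.9% and 84.1% in siNT and at 79.98%, 76.7% and 76.5% in siSFSWAP. It fell by 5.47 points (adjusted p = 0.0138), a change that was lost without siSFSWAP b or siSFSWAP c. A 163 nt exon inside the first intron, read 32 times per library, fell by 19.4 points (adjusted p = 0.0466), which was lost when any 1 of the 6 libraries was left out. With counts not divided by length it moved by -24.5 points and was called. The 4 tested introns did not pass, and the 2 of them that belong to the main transcript moved by -0.22 and -0.1 points. The other 2 lie inside intron 1. A 283 nt one moved by -10.2 points with no overlap, and a 330 nt one by 7.76 points with overlap.

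HNRNPR encodes hnRNP R, a close relative of SYNCRIP. Its exon 5 (chr1:23333518-23333631, minus strand, 114 nt) was included at 91.6%, 91.3% and 86.8% in siNT and at 94.7%, 94.3% and 93.7% in siSFSWAP. It rose by 4.33 points (adjusted p = 0.0343), and a 207 nt form of it rose by 7.40 points (adjusted p = 0.0433) on the same skipping junction. The 207 nt form shares an end with exon 5 and is in 0 annotated transcripts. In siNT a it had 1673 inclusion reads, where exon 5 had 3347, so these results are not separate. Skipping exon 5 would give 595 amino acids in place of 633. Both were lost when any library except siNT a was left out, at values up to 0.247.
HNRNPR exon 5: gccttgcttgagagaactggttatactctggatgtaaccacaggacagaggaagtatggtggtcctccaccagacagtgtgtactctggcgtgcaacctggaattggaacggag

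HNRNPU encodes hnRNP U, also known as scaffold attachment factor A, which binds RNA and chromatin. None of its 5 introns and 13 exon events passed, and none had an unadjusted p under 0.05 in the quasi-binomial test. Its introns were retained at 0.83% to 12.5% in siNT and moved by -0.61 to 0.54 points. The exon event with the smallest p was a 122 nt form of exon 14, at 99.3%, 99.4% and 99.7% in siNT and 98.8%, 98.3% and 99.3% in siSFSWAP (adjusted p = 0.263).

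Over the 10 genes, 32 intron events and 137 exon events did not pass the adjusted p. Of these, 25 introns and 104 exon events moved by at most 2 points. The 22 introns among them that belong to the main transcripts moved by at most 2.76 points, the largest being HNRNPH1 intron 7 (11.7% ± 1.7 in siNT and 14.4% ± 2.77 in siSFSWAP). Larger shifts without a pass included a 177 nt form of HNRNPH3 exon 4, which went from 37.1% ± 22.0 in siNT to 60.1% ± 20.2 on 23.3 reads per library (adjusted p = 0.13). A missed threshold does not show that such events were alike in the groups.

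The same exon-table reads were summed per gene, 1 event per exon, as spliced junction RPM. These sums are not expression values, since a change in splicing moves them too. In bulk RNA, fewer cells of a kind and less RNA per cell cannot be told apart. In limma-trend 3 of the 10 genes passed an adjusted p of 0.05, against 30.0% of the 10780 genes tested. HNRNPL had 274, 248 and 246 RPM in siNT and 310, 319 and 311 in siSFSWAP, and rose by 0.29 ± 0.07 on the log2 scale (adjusted p = 0.0127). HNRNPU had 1612, 1452 and 1429 in siNT and 1759, 1721 and 1637 in siSFSWAP, and rose by 0.19 ± 0.07 (adjusted p = 0.047).

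HNRNPH1 had 751, 931 and 987 RPM in siNT and 740, 730 and 693 in siSFSWAP, and fell by 0.29 ± 0.09 on the log2 scale (SE, adjusted p = 0.0331). Its siNT a library was close to the siSFSWAP libraries, and without siNT a the change was -0.41 (adjusted p = 4.29e-05). Without siNT b, siNT c or siSFSWAP b, none of the 10 genes passed, and without siSFSWAP c only HNRNPL did. The other 7 genes had means between 88.6% of siNT in HNRNPK and 114% in HNRNPH3 and did not pass, among them HNRNPH3 itself (adjusted p = 0.0531).

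**Figure D5:**
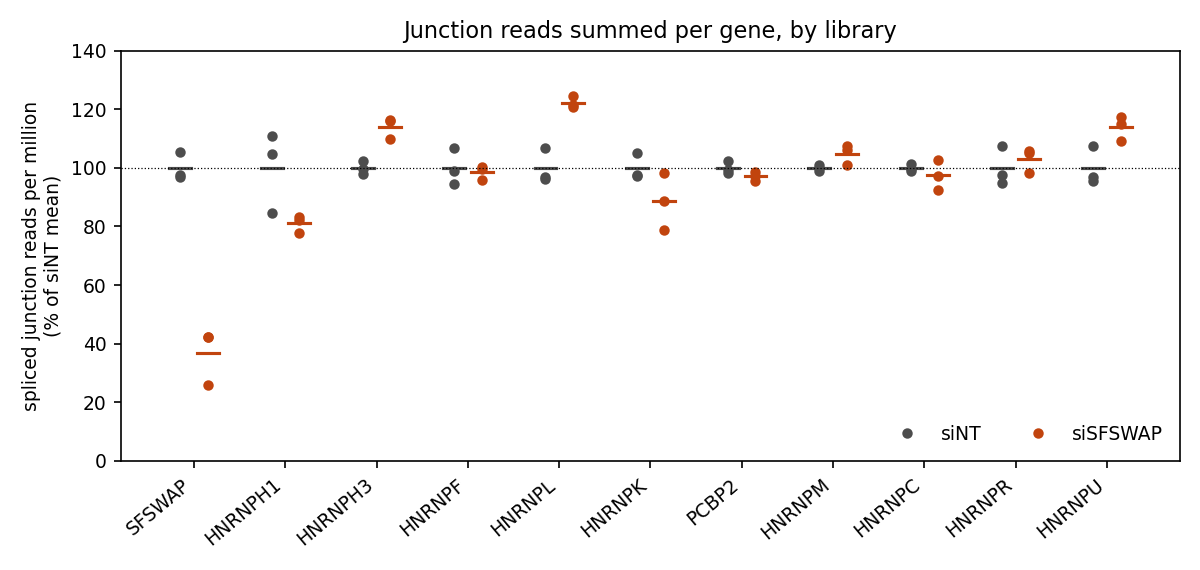
Spliced junction RPM of SFSWAP and the 10 genes in each library, as a percent of the siNT mean, with 1 point per library and a line at each group mean (n = 3). SFSWAP stood at 36.8% of siNT, and the 10 genes between 81.1% and 122%.

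For comparison, 23 other hnRNP and related genes were listed, of which 14 had tested introns and 17 tested exons. In them 2 of 72 intron events and 7 of 211 exon events were called, and 3 and 22 passed by the adjusted p alone. The called ones were 5 overlapping exon events of HNRNPA2B1, with changes of -36.6 to -26.3 points, 1 of PCBP4 (24.8 points higher) and 1 of RBMX (a change of -27.7 points), with introns of HNRNPA2B1 (-50.9 points) and HNRNPA1 (34.5 points higher). The shares that passed by the adjusted p were 13.3% of the members' exon events and 10.4% of these, and the difference was not tested because events of a gene share reads.

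A second test of the same events, limma on the log2 odds of the 2 forms, gave none of the members an adjusted p under 0.05. Their smallest adjusted p was 0.125 among introns and 0.068 among exon events, with 6 of 37 introns and 25 of 158 exon events at an unadjusted p under 0.05, which is 16.2% and 15.8% of them against 16.5% and 18.4% of all events. In the quasi-binomial test 8 and 52 were under 0.05, or 21.6% and 32.9%, against 15.8% and 19.8% of all events. Limma on the log2 odds gave the called HNRNPH1 stretch an adjusted p of 0.125 (unadjusted 0.000271). The same log2 odds test gave HNRNPL intron 7 one of 0.133 (unadjusted 0.000599) and PCBP2 exon 12 one of 0.0831 (unadjusted 0.00309). In all tested events the log2 odds test called 0 introns and 277 exon events.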

How the data were processed

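Per the submitters' processing notes and the study's methods, the authors used cutadapt 1.9.1 for adapter trimming, STAR 2.7 for alignment (GRCh38) and rMATS for splicing events. No source used here gives the strandedness of the libraries. The deposited tables hold values of another kind than one number per cell: each cell lists the junction read counts of 3 libraries, with effective lengths of the 2 forms in nucleotides. These deposited counts were not normalized by the authors. The tables also hold the authors' own p-values, FDR, inclusion levels and differences, which were not used. The tables number the groups, and the first was taken as siNT from the study's definition of the difference.

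Inclusion is the share of inclusion reads after dividing each count by its effective length. The groups were compared event by event with a quasi-binomial F test (two-sided), whose dispersion was moderated over all tested events of its table with limma 3.58.1 (trend on depth, floor of 1), with Benjamini-Hochberg adjustment over that table. The test was also run on counts simulated with its own fitted dispersions, which cannot show how it handles a library such as siNT a. A call needed an adjusted p no higher than 0.05 and a change of 0.2 or more, the study's thresholds. Gene sums were divided by the library total and tested with limma-trend on log2 values with 0.5 reads added, over genes averaging 20 reads or more. A count model had been planned for them and was not used, although the lists were split into read counts per library. Annotation and sequences are from GENCODE release 44 and the GRCh38 genome. Protein lengths are computed from the annotated start codon of the main (MANE Select) transcript. Named events are those past the adjusted p and, for each gene, the exon with the smallest p among those averaging 50 reads or more. The members and the lists were chosen with earlier results of these data known. P-values cover the spread between the 3 biological replicates of 1 cell line.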

Additional observations from a re-analysis of the deposited data

How the results depend on the processing

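Over 30 named events and their alternatives, 284 of 376 values kept their direction and their side of the adjusted p of 0.05, 92 kept their direction and lost it, and none reversed. Under limma on the log2 odds no member was called or passed the adjusted p, so the counts were 0 and 0 for introns and 0 and 0 for exon events, and over all events the calls went from 178 to 0 and from 1007 to 277. The cause was not tested. With a change threshold of 0.1, 4 introns and 10 exon events were called. With 1 library left out, 1 to 2 introns and 3 to 6 exon events were called, 3 to 5 introns and 8 to 41 exon events passed the adjusted p, and 15 to 542 introns and 406 to 1862 exon events were called over all genes. The 41 came without siNT a. Filters at 10 or 50 reads, no minimum for the rarer form, no dispersion floor, counts not divided by length and 1 event per exon left the members' counts within 1.5 times, but not the same events: with counts not divided by length the 54 nt form of HNRNPH1 exon 11 was no longer called (17.6 points) and the 163 nt HNRNPC exon was (-24.5 points), and with no minimum HNRNPH1 exon 6 lost its call (adjusted p = 0.0586).

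For the gene sums, 0 to 4 members passed with 1 library left out and 1 with limma-voom weights, an alternative chosen after seeing the data, as were median-ratio size factors (4 members). From the skipping reads of the retained intron table, HNRNPH3 turned to a log2 change of -0.0768 and HNRNPR to -0.0201. HNRNPF, at -0.0192, ranged from -0.0590 to 0.0285 with 1 library left out, the latter without siNT c, and was 0.000748 without siSFSWAP c. Neither edgeR nor DESeq2 was run, so how a count model would score the gene sums was not tested. No paired analysis was possible because the deposited lists carry no replicate numbers. The smallest change that 3 libraries per group could show at each depth was not measured.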

Other observations

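In all 7 called events of the members, the siNT library whose inclusion lay nearest to the siSFSWAP mean was siNT a. These 7 events share 4 skipping junctions, so they are not 7 separate instances. Over the 26 member events with an adjusted p of at most 0.05, siNT a was nearest in 15, siNT b in 5 and siNT c in 6. The 15 include HNRNPM exon 4, where every siNT library stood at 100%, a tie that was counted for siNT a. In HNRNPH1, reads of the junction from exon 4 to exon 8 were 0.804 RPM in siNT a, 5.4 in siNT b and 5.81 in siNT c, and 0.963, 0.819 and 1.13 in siSFSWAP. The boundary reads of HNRNPL intron 7 were likewise lowest of the siNT libraries in siNT a, at 22.4 RPM against 31.1 and 37.5. What sets siNT a apart was not tested.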
